A study of Mus musculus with 8 samples.

Results

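The motile cilia and multiciliation genes encode the parts that make a cilium beat and the regulators that switch those parts on. They were taken by symbol from a read-count table of mouse choroid plexus: every gene of the axonemal dynein families Dnahc and Dnaic, of the radial spoke family Rsph and of the tektin family Tekt, together with Dnali1, Dynlrb2, Lrrc6, Foxj1, Rfx2, Rfx3, Ccno, Trp73, Myb, Spag6, Spag16, Spag17, Hydin, Ak7, Ccdc39, Ccdc40, Cetn2, Tppp3 and 1700027A23Rik. This gave 43 of 23284 genes, and the rule uses no measured value. The filter on low counts kept 15698 genes and 41 of the 43. Rsph6a, a radial spoke head gene known from sperm, had 0 counts in all 4 whole-tissue libraries, which allows a level of up to 0.121 to 0.314 in the scaled count unit CPM (explained below), and 0, 1, 1 and 15 counts in the sorted libraries. Tekt3 had 0 to 3 counts in every library.

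A motile cilium is built on a ring of microtubule doublets. Outer and inner dynein arms, each made of large heavy chains with smaller chains attached, slide the doublets against each other, while radial spokes and, in many cilia, a central pair of microtubules set the beat. Multiciliated cells first multiply their centrioles and then assemble many such cilia under the control of the transcription factors Foxj1, Rfx2, Rfx3, Trp73 and Myb. The epithelial cells of the choroid plexus, which secrete cerebrospinal fluid, carry tufts of cilia of this kind.

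RNA was taken from choroid plexus of mouse embryos at E18.5 and sequenced. Telencephalic choroid plexus (from the lateral ventricles) was compared with hindbrain choroid plexus (from the fourth ventricle), each in 2 preparations. Whole choroid plexus came from the outbred strain CD1, and the epithelial cells, given as strain ICR (CD1), were purified by fluorescence-activated sorting for Ttr::RFP, a red reporter named for the transthyretin gene, so that the sort selects cells by that reporter alone. Each of the 4 groups holds 2 biological replicates, and the series' design text states that both regions were isolated from the same brains; whether embryos were pooled is not stated. Sorted and whole libraries therefore come from different animals, and preparation and strain label cannot be told apart. CPM, the usual unit of read counts relative to library size, use library sizes scaled by TMM factors. Changes are on the log2 scale, with the standard error (SE) that edgeR's quasi-likelihood fit gives. Adjusted p-values come from that test, after Benjamini-Hochberg adjustment across all 15698 genes. A gene is said to be called when its adjusted p is below 0.05.

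Libraries held 8849053 to 31613434 counts, and no replicate pair was a copy of the other. Of 15 choroid epithelial markers, 8 rose on sorting in telencephalic and 7 in hindbrain tissue (3 and 0 with library totals as the scale); their summed level was 183482 to 199018 CPM in telencephalic and 150888 to 153344 in hindbrain whole tissue. After sorting it was 273148 to 295982 and 173930 to 225053 CPM. The sum includes Ttr, the gene for which the sorting reporter is named. On the TMM scale Ttr rose on sorting by 0.59 ± 0.13 in telencephalic and by 0.40 ± 0.13 in hindbrain tissue. Its regional change was -0.36 ± 0.13, adjusted p = 0.144 in whole tissue and -0.54 ± 0.13, adjusted p = 0.0118 in sorted cells. By region, single epithelial markers went both ways. In hindbrain whole tissue Enpp2 (1.15 ± 0.12), Slc4a5 (0.77 ± 0.14) and Prlr (1.64 ± 0.35) were called higher. Folr1 (-0.59 ± 0.10) and Sulf1 (-1.32 ± 0.12) were called lower there. All 10 endothelial markers fell in both sorts, from sums of 675 to 750 CPM to sums of 115 to 161. The sorts were not alike for other cell types: the 10 macrophage markers summed to 32.0 to 56.6 CPM in telencephalic sorted cells and to 147 to 181 in hindbrain sorted cells, the 10 mesenchymal markers to 896 to 934 and 1534 to 2014, and the 8 mural markers to 38.1 to 39.3 and 152 to 155. In whole tissue the macrophage sums were 140 to 158 CPM in telencephalic and 170 to 181 in hindbrain tissue. There the mesenchymal sums were 1224 to 1476 and 1818 to 2064, and the mural sums 237 to 248 and 223 to 261.

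**Figure D1:**
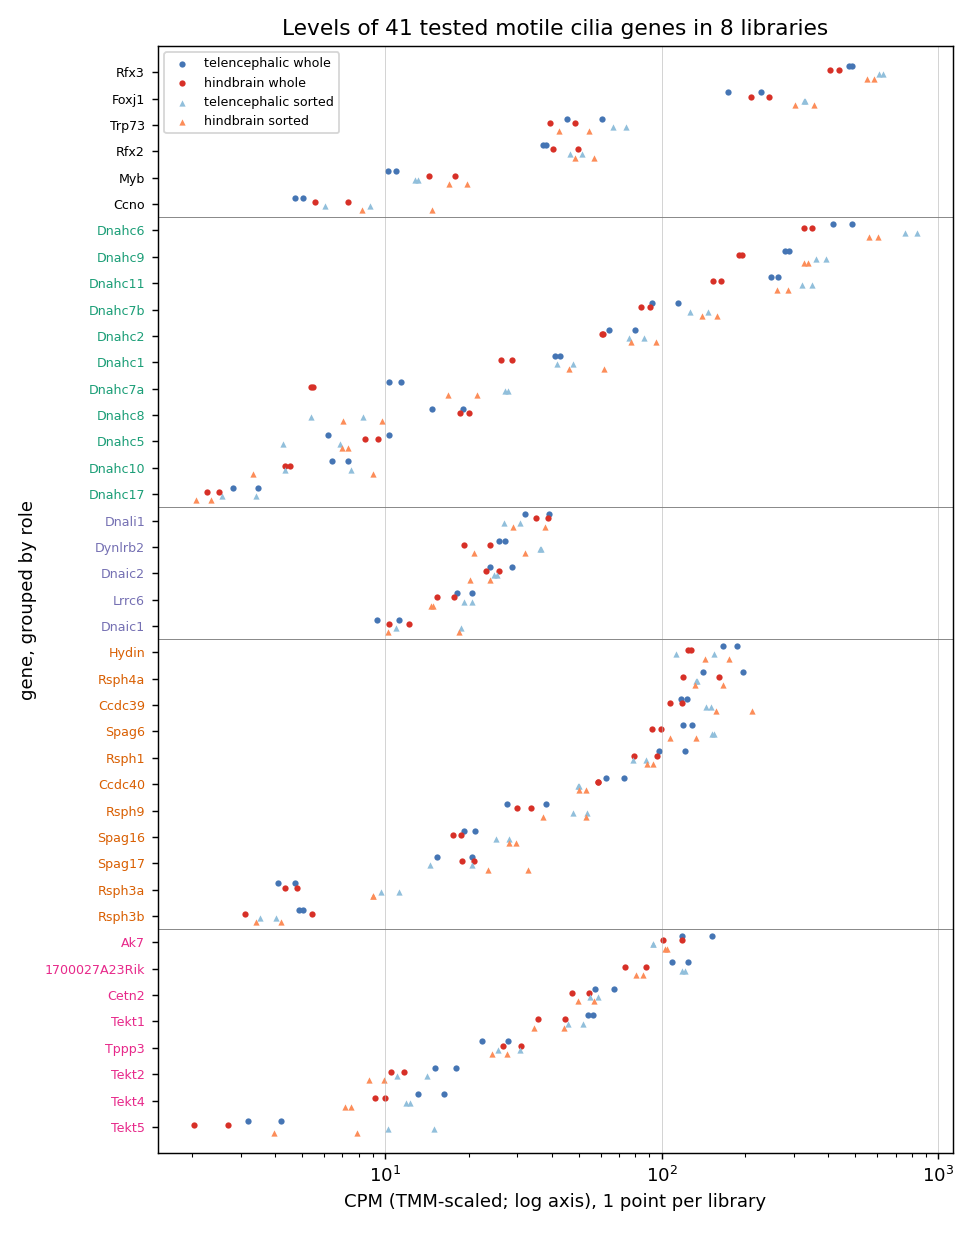
CPM on a log axis for the 41 tested genes, with 1 point per library, grouped by role and ordered by mean level; circles are whole tissue, triangles sorted cells. Rfx3, Dnahc6, Dnahc9, Dnahc11 and Foxj1 reach furthest right, and for Dnahc7a and Rsph3a the triangles lie clear of the circles.

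The ciliary genes were present in every group. Their summed level was 3488 and 3388 CPM in the telencephalic whole libraries, 2885 and 2735 in hindbrain whole tissue, 4114 and 4341 in telencephalic sorted cells and 3755 and 3961 in hindbrain sorted cells. On the TMM scale the sorted libraries stood above the whole-tissue libraries of both regions. Within each preparation the telencephalic libraries stood above the hindbrain ones on that scale. The TMM factors were 0.837 and 0.869 in telencephalic sorted cells and 1.05 and 1.08 in telencephalic whole tissue. They were 1.03 and 0.933 in hindbrain sorted cells. With library totals telencephalic sorted libraries no longer all stood above telencephalic whole ones, nor above hindbrain sorted ones. In bulk tissue, fewer ciliated cells and less RNA per cell cannot be told apart.

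Levels can be ordered between genes only per length, and the order below uses CPM per kb of the longest coding transcript in GENCODE M21, averaged over the 8 libraries. 1700027A23Rik, named Pifo (pitchfork) in RefSeq, stood at 105 CPM per kb and Foxj1 at 103, followed by the radial spoke gene Rsph1 at 78.0 and Rfx3 at 57.2. Among the heavy chains of the outer arm, Dnahc9 (21.5 CPM per kb) and Dnahc11 (18.2) were far above Dnahc8 (0.772), Dnahc5 (0.479) and Dnahc17 (0.179). Among those of the inner arm, Dnahc6 led at 42.9 CPM per kb, with Dnahc7b at 9.68, Dnahc2 at 5.49, Dnahc1 at 3.27, Dnahc7a at 1.28 and Dnahc10 at 0.417. On the CPM scale, without length, the 6 most abundant members were Dnahc6, Rfx3, Dnahc9, Foxj1, Dnahc11 and Hydin.

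Region was compared first, the question being how choroid plexus differs with its position along the brain. In whole tissue 5 of the 41 genes were called, all lower in hindbrain, against 5.79% of all genes called either way, 3.34% higher and 2.45% lower; with the brain as a block 8 were called, all lower. The median change was -0.24, against 0.005 over all genes. In sorted cells 1 gene was called higher and 5 lower (4 higher and 0 lower with library totals in place of TMM factors), against 15.2% of all genes called either way, 9.06% higher and 6.12% lower; the median was -0.043, against -0.0015 over all genes. Averaged over both preparations, 1 was called higher and 11 lower, against 10.6% of all genes called higher and 7.82% called lower, and the median was -0.11, against 0.0028. With library totals as the scale, the median of all genes moved by 0.14 in that average and the counts of the cilia genes became 4 higher and 6 lower, yet the members' median lay at -0.12 relative to that of all genes under either scale. In sorted cells the same change of scale moved the median of all genes by 0.20 and turned the members' median to 0.13, which is -0.067 relative to all genes, against -0.042 with TMM factors. With library totals the whole-tissue calls of 1700027A23Rik (adjusted p = 0.0821), Dnahc1 (0.0680) and Dnahc9 (0.0504) were lost, as were all 5 lower calls in sorted cells (0.0572 to 0.212) and, on average, those of Dnahc9, Spag6, Tekt1, Tekt2 and Trp73 (0.0927 to 0.142); no named gene that had been called changed its sign. With only the 4 sorted libraries in the fit, the sorted calls of Spag17 (0.0866), Tekt4 (0.0749), Tekt5 (0.0678) and Trp73 (0.0514) were lost.

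Taken brain by brain, 16 of the 41 genes were lower in hindbrain than in telencephalic choroid plexus in all 4 brains (or pools), whereas 18.4% of all genes tested were lower in all 4. A further 5 genes were higher in hindbrain in all 4 brains (Ccno, Dnahc8, Myb, Rfx2 and Spag17), against 19.0% of all genes. Of the remaining 20 genes, 5 were lower in hindbrain in 3 brains, 11 in 2 and 4 in 1. All these counts use TMM-scaled CPM. Library totals would shift the hindbrain differences of all genes upward in each brain, and the counts were not remade on that scale.

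**Figure D2:**
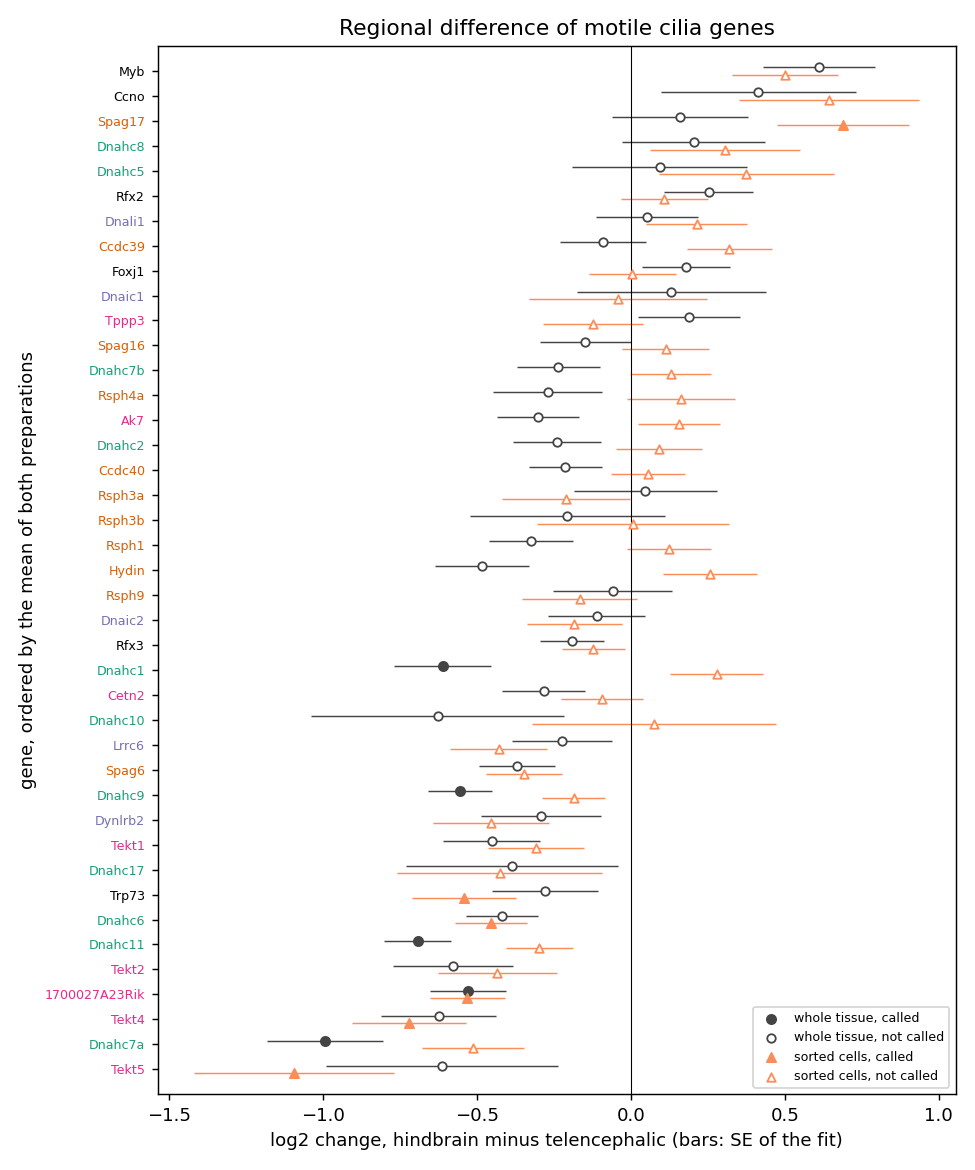
Log2 change from telencephalic to hindbrain choroid plexus for the 41 tested genes, ordered by the mean of both preparations, with bars for the SE; dark circles are whole tissue, orange triangles sorted cells, and filled symbols are called. Myb stands at the top, to the right of 0, and 1700027A23Rik, Tekt4, Dnahc7a and Tekt5 at the bottom, to the left of 0 in both preparations.

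Did region act alike in both preparations? The interaction, the hindbrain minus telencephalic change in sorted cells less that in whole tissue, was called by edgeR for 0 of the 41 genes, against 1.34% of all genes (1.1% higher and 0.242% lower). Of the 41, 6 had an unadjusted p below 0.05, and DESeq2 called 2. Those were Dnahc1 and Hydin, which had the largest values (0.89 ± 0.22, adjusted p = 0.0803 for Dnahc1 and 0.74 ± 0.22, adjusted p = 0.175 for Hydin). Both were also called with the brain as a block (adjusted p = 0.0194 and 0.0277) and without a filter (0.0111 and 0.0225), and Dnahc1 with library totals (0.0322) and without hindbrain sorted replicate 1 (0.00984). Hydin, a giant protein of the central pair, stood at 167 and 186 CPM in telencephalic and 128 and 125 in hindbrain whole tissue, and 112 and 154 in telencephalic and 143 and 175 in hindbrain sorted cells. Hindbrain was lower in both whole-tissue brains and higher in both sorted brains. The whole-tissue change of Hydin was -0.48 ± 0.15, adjusted p = 0.0992, and with the brain as a block it was called (adjusted p = 0.0192). The macrophage, mesenchymal and mural sums given above also differed between the sorted regions. Transcript length went with the interaction too, with values given below. The part of neither in the interaction was tested.

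Sorted cells were set against whole tissue of the same region to see which genes go with the epithelium. In hindbrain the macrophage and mesenchymal sums of sorted and whole libraries overlapped, which limits that reading there. In telencephalic choroid plexus 10 genes were called higher and 3 lower, against 22.4% of all genes called either way, 9.88% higher and 12.5% lower. In hindbrain 13 were called higher and 1 lower, against 22.1% either way, 10.2% higher and 11.9% lower. The median changes were 0.16 and 0.30, against 0.015 and 0.0089 over all genes. These directions depend on the scale: with library totals the median of all genes fell to -0.30 and -0.19, the counts became 4 higher and 12 lower in telencephalic and 10 higher and 3 lower in hindbrain tissue, and the members' medians became -0.16 and 0.084, or 0.14 and 0.27 above all genes, as against 0.14 and 0.29 with TMM. The rises and falls named below are relative to the TMM scale.

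Of the 6 regulators, Foxj1 and Rfx3 rose on sorting in both regions, and Myb and Trp73 differed by region in opposite directions. Foxj1, the forkhead factor that switches on genes of motile cilia, stood at 228 and 173 CPM in telencephalic and 245 and 209 in hindbrain whole tissue, and 330.2 and 326 in telencephalic and 303 and 355 in hindbrain sorted cells. Both sorted groups lay above both whole-tissue groups, while the regions overlapped. Foxj1 rose in sorted cells by 0.71 ± 0.14 in telencephalic (adjusted p = 0.00409) and by 0.54 ± 0.14 in hindbrain tissue (adjusted p = 0.018). Its regional change was 0.18 ± 0.14, adjusted p = 0.626 in whole tissue and 0.0046 ± 0.14, adjusted p = 0.989 in sorted cells. Rfx3, a winged-helix factor that binds promoters of ciliary genes, stood at 488 and 474 CPM in telencephalic and 437 and 406 in hindbrain whole tissue, and 609 and 630.1 in telencephalic and 585 and 554 in hindbrain sorted cells. It rose on sorting by 0.36 ± 0.10, adjusted p = 0.0245 in telencephalic and by 0.43 ± 0.10, adjusted p = 0.0107 in hindbrain tissue, and its regional changes were -0.19 ± 0.10, adjusted p = 0.409 and -0.12 ± 0.10, adjusted p = 0.491. The rise of Foxj1 lost its call without telencephalic whole replicate 2 (adjusted p = 0.0634) in the telencephalic comparison and without hindbrain whole replicate 2 or hindbrain sorted replicate 2 (up to 0.146) in the hindbrain one; that of Rfx3 lost its call without any 1 of the 4 telencephalic libraries (up to 0.148) and without hindbrain whole replicate 2 (0.0945). With library totals all 4 of these calls were lost (0.0593 and 0.117 for Foxj1, 0.822 and 0.204 for Rfx3).

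Myb, which acts early in the differentiation of multiciliated cells, stood at 10.2 and 10.9 CPM in telencephalic and 14.4 and 17.8 in hindbrain whole tissue, and 12.8 and 13.1 in telencephalic and 17.0 and 19.7 in hindbrain sorted cells. Every hindbrain library lay above every telencephalic library of its preparation. Its regional change was 0.61 ± 0.18, adjusted p = 0.0755 in whole tissue and 0.50 ± 0.17, adjusted p = 0.0726 in sorted cells, and only the average of both passed the threshold (0.56 ± 0.13, adjusted p = 0.00781). Without telencephalic whole replicate 1 that p was 0.0540. With library totals Myb was called in whole tissue (0.0420) and in sorted cells (0.0140) as well. Trp73, a p53-family factor needed for multiciliated cells, went the other way, at 60.7 and 45.5 CPM in telencephalic and 48.4 and 39.5 in hindbrain whole tissue, and 74.0 and 66.7 in telencephalic and 42.3 and 54.5 in hindbrain sorted cells. The regions overlapped in whole tissue and not in sorted cells, and hindbrain was lower in all 4 brains, with -0.54 ± 0.17, adjusted p = 0.0487 in sorted cells and -0.41 ± 0.12, adjusted p = 0.0322 on average; both calls were lost in 5 of the 8 refits without a library (without either telencephalic sorted library, telencephalic whole replicate 1 or hindbrain sorted replicate 1 in both, telencephalic whole replicate 2 in the former and hindbrain whole replicate 2 in the latter), with adjusted p up to 0.270 and 0.199.

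Ccno, a cyclin-like protein needed for centriole multiplication, stood at 4.71 and 5.03 CPM in telencephalic and 7.34 and 5.57 in hindbrain whole tissue, and 6.05 and 8.81 in telencephalic and 8.26 and 14.8 in hindbrain sorted cells. It was higher in hindbrain in each brain, but the regions overlapped in sorted cells, and the change averaged 0.53 ± 0.22, adjusted p = 0.114. With the brain as a block that average was called (adjusted p = 0.0386), as it was with library totals (0.0372) and in the refit leaving out hindbrain sorted replicate 1 (0.0139). Rfx2, a relative of Rfx3, averaged 0.18 ± 0.10, adjusted p = 0.255, or 0.0429 with library totals. Its sorted minus whole changes were 0.37 ± 0.15, adjusted p = 0.0855 and 0.23 ± 0.14, adjusted p = 0.271.

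Because RFX and forkhead factors bind short DNA words, the promoters of the cilia genes were searched for those words. RefSeq (GRCm38.p6) gave a window of 250 bases before to 50 after the start site for 38 of the 43 genes. The RFX word, GTTNCC followed by any 2 bases and GGNAAC (N is any base), was searched on both strands, and exact matches were found in 1 of the 38 genes, 1700027A23Rik, against 0.529% of all 27025 genes with a window. With up to 1 mismatch among its 10 fixed letters, a setting chosen after the exact count was seen, it was found in 5 genes (13.2%), against 2.89% of all genes. The forkhead word TGTTTAC, also on both strands, was found in 4 genes (10.5%), against 4.05%. A match is a stretch of letters and not a measured binding site. Some of the matches are shown, 1 for each of 6 genes with values given here, with capitals marking the match.
1700027A23Rik, chr3:106001496-106001525, minus strand: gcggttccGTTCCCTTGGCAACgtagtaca
Spag16, chr1:69826859-69826888, plus strand: ggcaacgcGTTGCCGTAGTAACtgcggacg
Ccno, chr13:112987575-112987604, plus strand: gggctgcgGTTGCCACGGTGACgacagacg
Tekt4, chr17:25471582-25471611, plus strand: tatacaatGTTCCTTAGGCAACcaggaacc
Myb, chr10:21160937-21160959, minus strand: atggcatcTGTTTACagagttac
Ak7, chr12:105705843-105705865, plus strand: agagaaatTGTTTACccaagcag
The first 4 hold the RFX word, exact in 1700027A23Rik and with 1 mismatch in the others, and the last 2 the forkhead word. Tekt4 had another RFX match with 1 mismatch, Hydin had 1 such match, and Dnahc17 and Tekt3 held the forkhead word. The genes shown moved in different directions by region: 1700027A23Rik and Tekt4 were lower in hindbrain in all 4 brains, and Ccno and Myb were higher.

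The dynein heavy chains, the motor proteins of the arms, held most of the regional calls in whole tissue. Lower in hindbrain were 4 of 11, against 2.45% of all genes. The median change of the 11 was -0.42 in whole tissue and 0.074 in sorted cells (-0.34 and 0.24 with library totals). Dnahc11, an outer arm chain, stood at 249 and 264 CPM in telencephalic and 164 and 153 in hindbrain whole tissue, and 321 and 349 in telencephalic and 259.8 and 285 in hindbrain sorted cells. The regions did not overlap in either preparation. In whole tissue it was 1.62-fold lower in hindbrain (-0.69 ± 0.11, adjusted p = 0.00205), and this stayed called in all 8 refits without a library (adjusted p up to 0.0376). In sorted cells its change was -0.30 ± 0.11, adjusted p = 0.0879. Dnahc9, the other abundant outer arm chain, stood at 279 and 288 CPM in telencephalic and 191 and 195 in hindbrain whole tissue, and 362 and 393 in telencephalic and 337 and 327 in hindbrain sorted cells. It was also lower in hindbrain in whole tissue (-0.56 ± 0.10, adjusted p = 0.00639), while the sorted change was -0.19 ± 0.10, adjusted p = 0.269. Averaged over both preparations the changes were -0.50 ± 0.077, adjusted p = 0.000655 for Dnahc11 and -0.37 ± 0.073, adjusted p = 0.00342 for Dnahc9.

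Dnahc7a, an inner arm chain with a near-identical copy in Dnahc7b, had the largest fall in whole tissue. Its level was 10.3 and 11.4 CPM in telencephalic and 5.40 and 5.48 in hindbrain whole tissue, and 27.7 and 27.0 in telencephalic and 16.8 and 21.5 in hindbrain sorted cells. The hindbrain whole libraries stood at the bottom and the telencephalic sorted ones at the top. Its regional change was -0.99 ± 0.19, adjusted p = 0.00682 in whole tissue, with -0.51 ± 0.17, adjusted p = 0.0571 in sorted cells and -0.75 ± 0.13, adjusted p = 0.00108 on average. With the brain as a block the sorted change was called too (adjusted p = 0.0390). Dnahc7b, at 92.5 and 114 CPM in telencephalic and 84.4 and 90.6 in hindbrain whole tissue, and 127 and 146 in telencephalic and 159 and 140.1 in hindbrain sorted cells, changed by -0.24 ± 0.13, adjusted p = 0.441 and 0.13 ± 0.13, adjusted p = 0.578 by region. Reads that fit both copies may have been assigned or dropped in ways the sources used here do not state, so each single value is uncertain.

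Dnahc1, an inner arm chain, stood at 41.2 and 42.7 CPM in telencephalic and 26.1 and 28.7 in hindbrain whole tissue, and 41.8 and 47.6 in telencephalic and 46.3 and 62.0 in hindbrain sorted cells. Hindbrain was below telencephalic tissue in the whole preparation (-0.61 ± 0.16, adjusted p = 0.0392) and was not in the sorted one (0.28 ± 0.15, adjusted p = 0.258). Dnahc6, the most abundant member in CPM, stood at 416 and 489 CPM in telencephalic and 328 and 349 in hindbrain whole tissue, and 759 and 838 in telencephalic and 559.7 and 605 in hindbrain sorted cells. It was lower in hindbrain in sorted cells (-0.46 ± 0.12, adjusted p = 0.0201) and on average (-0.44 ± 0.083, adjusted p = 0.00254), with -0.42 ± 0.12, adjusted p = 0.0578 in whole tissue. With the brain as a block the whole-tissue change was called as well (adjusted p = 0.0407). Without 1 library the whole-tissue calls ended for Dnahc7a (without either telencephalic whole library, adjusted p up to 0.0772), Dnahc9 (without those or hindbrain whole replicate 1, up to 0.0773) and Dnahc1 (without any of the whole-tissue or telencephalic sorted libraries, up to 0.240). The sorted call of Dnahc6 ended without either telencephalic sorted library or hindbrain sorted replicate 1 (up to 0.130). The averages of Dnahc6, Dnahc7a, Dnahc9 and Dnahc11 stayed called in all 8 such refits.

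On sorting, 5 of the 11 heavy chains rose in telencephalic and 7 in hindbrain tissue, and Dnahc8 fell in both. Over all genes, 9.88% rose and 12.5% fell in telencephalic tissue, and 10.2% and 11.9% in hindbrain tissue. Dnahc7a rose by 1.33 ± 0.18, adjusted p = 0.00022 in telencephalic and by 1.82 ± 0.18, adjusted p = 2.64e-05 in hindbrain tissue, 2.52-fold and 3.52-fold. Dnahc6 rose by 0.82 ± 0.12, adjusted p = 0.000388 and by 0.78 ± 0.12, adjusted p = 0.000613. Dnahc9 rose by 0.41 ± 0.10, adjusted p = 0.0135 and by 0.78 ± 0.10, adjusted p = 0.000257, and Dnahc11 by 0.39 ± 0.11, adjusted p = 0.0241 and by 0.78 ± 0.11, adjusted p = 0.000389. Dnahc7b rose in telencephalic tissue by 0.41 ± 0.13, adjusted p = 0.0464. In hindbrain Dnahc1 (0.98 ± 0.15, adjusted p = 0.000857), Dnahc7b (0.77 ± 0.13, adjusted p = 0.00164) and Dnahc2 (0.50 ± 0.14, adjusted p = 0.0244) rose too. Dnahc8, an outer arm chain known from sperm, stood at 14.7 and 19.1 CPM in telencephalic and 18.7 and 20.1 in hindbrain whole tissue, and 5.41 and 8.31 in telencephalic and 7.02 and 9.72 in hindbrain sorted cells. It was 2.48-fold lower in telencephalic (-1.31 ± 0.25, adjusted p = 0.0026) and 2.31-fold lower in hindbrain sorted cells (-1.21 ± 0.23, adjusted p = 0.00333), and the groups did not overlap. These calls stayed in all 8 refits without a library except those of Dnahc9, Dnahc11 and Dnahc7b in telencephalic tissue and of Dnahc2. The telencephalic calls ended for Dnahc9 without either telencephalic whole library or telencephalic sorted replicate 2 (adjusted p up to 0.117), for Dnahc11 without any 1 of the 4 telencephalic libraries (up to 0.178) and for Dnahc7b without any 1 of those or of the hindbrain whole libraries (up to 0.369). The hindbrain call ended for Dnahc2 (up to 0.120 without either hindbrain whole library or hindbrain sorted replicate 2). With library totals the telencephalic calls of Dnahc9, Dnahc11 and Dnahc7b (0.621 to 0.726) and the hindbrain call of Dnahc2 (0.169) were lost. The telencephalic call of Dnahc7b was also lost with relative log expression factors (0.0562), and the hindbrain call of Dnahc2 with only the 4 libraries of the comparison (0.0542). The macrophage and mesenchymal sums given above differed between the sorts, and their part in these changes was not tested.

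Heavy chain transcripts run from 12.2 to 16.7 kb, so the sorted change was set against transcript length. Across the 15495 genes with a length, Spearman's rho between length and the sorted minus whole change was -0.162 in telencephalic and -0.0746 in hindbrain tissue, a description in which all points share the same libraries. The 371 tested genes of 10 kb or more had median changes of -0.084 and 0.018. The 12 cilia genes of that length, the 11 heavy chains and Hydin, had medians of 0.13 and 0.64. For region in whole tissue the 371 genes had a median of -0.061, and the 12 had -0.45. In sorted cells these medians were 0.073 and 0.082. In the interaction the 371 genes had a median of 0.12 and the 12 had 0.37. Its rho with length was 0.127 over all genes and 0.468 over the 41 cilia genes, again as a description over shared libraries.

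**Figure D3:**
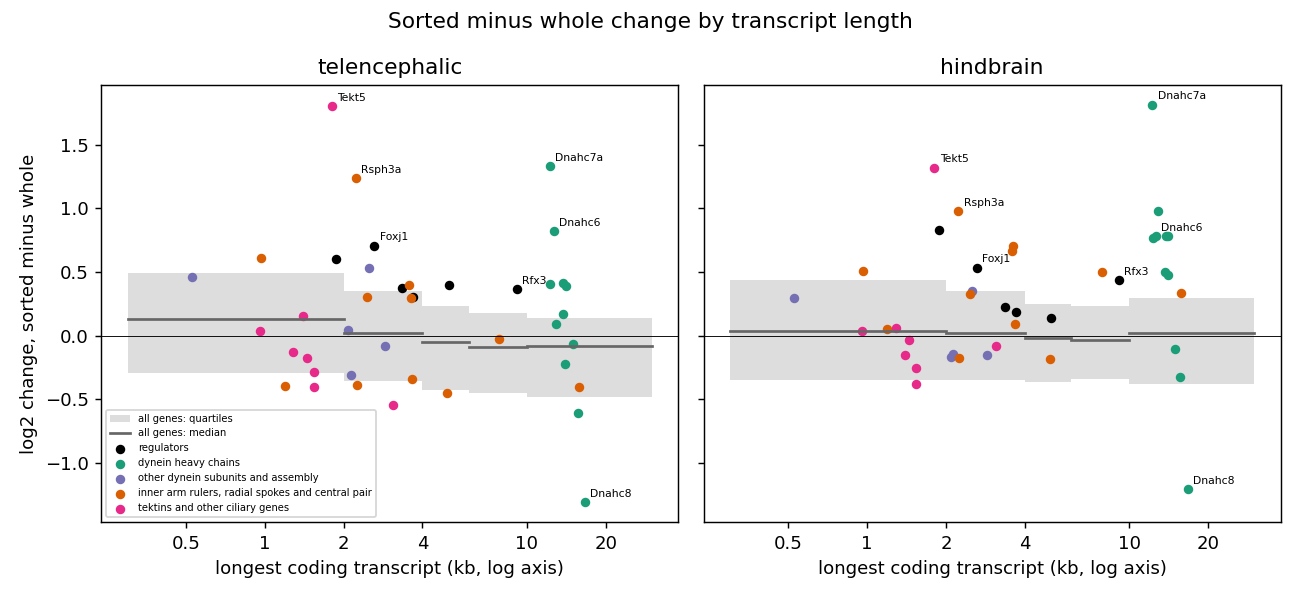
Log2 change from whole tissue to sorted cells against the length of the longest coding transcript (kb, log axis), 1 point per tested cilia gene, coloured by role; grey boxes span the quartiles of all genes in each length class and the dark line is their median. Tekt5 lies highest in the telencephalic and Dnahc7a in the hindbrain panel, Dnahc8 lies lowest in both, and the 7 heavy chains called higher in hindbrain lie above the grey box.

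The smaller dynein subunits and the assembly factor Lrrc6 had no called change in any of the comparisons by edgeR: for the 5 genes Dnaic1, Dnaic2, Dnali1, Dynlrb2 and Lrrc6 the medians lay between -0.18 (region in sorted cells) and 0.042 (sorted minus whole, telencephalic). With library totals these became 0.014 and -0.28, and 1 of the 5 was called lower on sorting in telencephalic tissue. Dynlrb2, a light chain shared by dyneins, stood at 27.1 and 25.7 CPM in telencephalic and 23.9 and 19.2 in hindbrain whole tissue, and 36.2 and 36.4 in telencephalic and 21.0 and 32.0 in hindbrain sorted cells, lower in hindbrain in all 4 brains, with -0.37 ± 0.14, adjusted p = 0.0763 on average. Lrrc6, needed to preassemble dynein arms, was lower in hindbrain in all 4 brains too (-0.33 ± 0.11, adjusted p = 0.0653). With the brain as a block both averages were called (adjusted p = 0.0262 for Dynlrb2 and 0.0450 for Lrrc6), and Dynlrb2 was called in sorted cells (0.0480).

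Among the inner arm rulers, radial spoke and central pair genes, 11 of 12 were tested, and by region 1 was called in sorted cells and 1 on average. Over all genes, 9.06% were called higher and 6.12% lower in sorted cells, and 10.6% and 7.82% on average. Spag17, a central pair protein, stood at 15.4 and 20.5 CPM in telencephalic and 18.9 and 21.0 in hindbrain whole tissue, and 14.5 and 20.7 in telencephalic and 23.6 and 32.7 in hindbrain sorted cells. It was the only tested cilia gene called higher in hindbrain sorted cells with TMM factors (0.69 ± 0.21, adjusted p = 0.0487), and it was higher in hindbrain in all 4 brains. Its average was 0.42 ± 0.15, adjusted p = 0.0784, and was called with the brain as a block (adjusted p = 0.0112). The sorted-cell call of Spag17 was lost in 6 of 8 refits without a library. It stayed without telencephalic sorted replicate 2 and without hindbrain sorted replicate 1. Over these refits the sorted-cell change ran from 0.43 to 0.95. Spag6, another central pair protein with a near-identical copy in the mouse genome, was lower in hindbrain on average (-0.36 ± 0.088, adjusted p = 0.0125), at 128 and 119.7 CPM in telencephalic and 99.5 and 92.2 in hindbrain whole tissue, and 152 and 154 in telencephalic and 107 and 133 in hindbrain sorted cells. The regions overlapped in neither preparation. Without telencephalic whole replicate 1 its adjusted p was 0.0717. In sorted cells alone its change was -0.35 ± 0.12, adjusted p = 0.0793, called with the brain as a block (adjusted p = 0.0470). The median of the 11 genes was 0.11 in sorted cells and -0.082 on average, and 0.32 and 0.062 with library totals.

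On sorting, Rsph3a, which lies in the spoke stalk and has a near-identical copy in Rsph3b, rose in both regions, at 4.71 and 4.09 CPM in telencephalic and 4.80 and 4.34 in hindbrain whole tissue, and 11.2 and 9.61 in telencephalic and 9.06 and 8.99 in hindbrain sorted cells. The changes were 1.24 ± 0.23, adjusted p = 0.00218 and 0.98 ± 0.21, adjusted p = 0.00696, while Rsph3b changed by -0.39 ± 0.32, adjusted p = 0.419 and -0.18 ± 0.31, adjusted p = 0.723. The paired rulers Ccdc39 and Ccdc40, which together space the inner arms and spokes, were each called in 1 region and in opposite directions. Ccdc39 stood at 117 and 124 CPM in telencephalic and 107 and 119 in hindbrain whole tissue, and 151 and 144 in telencephalic and 211 and 157 in hindbrain sorted cells and rose in hindbrain sorted cells (0.70 ± 0.14, adjusted p = 0.00376), with 0.29 ± 0.14, adjusted p = 0.152 in telencephalic ones. Ccdc40 stood at 72.8 and 63.0 CPM in telencephalic and 58.8 and 58.6 in hindbrain whole tissue, and 49.7 and 50.05 in telencephalic and 50.3 and 53.3 in hindbrain sorted cells and fell in telencephalic sorted cells (-0.45 ± 0.12, adjusted p = 0.0193), with -0.18 ± 0.12, adjusted p = 0.305 in hindbrain ones. Spag16, of the central pair, rose in hindbrain (0.66 ± 0.14, adjusted p = 0.00638) and the spoke gene Rsph9 in telencephalic sorted cells (0.61 ± 0.19, adjusted p = 0.037). Without 1 library the calls ended for Ccdc40 (without telencephalic whole replicate 1 or either telencephalic sorted library, adjusted p up to 0.212), Rsph9 (without telencephalic whole replicate 2 or either telencephalic sorted library, up to 0.289), Spag16 (without hindbrain whole replicate 1, 0.0527) and Rsph3a in hindbrain (without hindbrain whole replicate 2, 0.0665). With library totals the call of Rsph9 was lost (0.230).

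Of the tektins and the other ciliary genes, 8 of 9 were tested. Lower in hindbrain were 1 in whole tissue, 3 in sorted cells and 5 on average, against 2.45%, 6.12% and 7.82% of all genes. The group's median was -0.49 in whole tissue and -0.37 in sorted cells. 1700027A23Rik was called in whole tissue and in sorted cells alike, at 124 and 109 CPM in telencephalic and 87.7 and 73.7 in hindbrain whole tissue, and 121 and 118 in telencephalic and 80.5 and 85.2 in hindbrain sorted cells. The hindbrain libraries lay below the telencephalic ones throughout, and the change was -0.53 ± 0.12, adjusted p = 0.0229 in whole tissue, -0.53 ± 0.12, adjusted p = 0.0115 in sorted cells and -0.53 ± 0.087, adjusted p = 0.000953 on average. The average stayed called in all 8 refits without a library (adjusted p up to 0.0110). The whole-tissue call ended without either telencephalic whole library or hindbrain whole replicate 2 (up to 0.308), and the sorted call without either telencephalic sorted library (up to 0.0873).

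Tektins form filaments inside the doublet microtubules. Tekt4 stood at 16.3 and 13.1 CPM in telencephalic and 9.19 and 9.96 in hindbrain whole tissue, and 12.3 and 11.8 in telencephalic and 7.53 and 7.16 in hindbrain sorted cells. Every hindbrain library lay below every telencephalic one, with -0.62 ± 0.19, adjusted p = 0.078 in whole tissue, -0.72 ± 0.19, adjusted p = 0.0207 in sorted cells and -0.67 ± 0.13, adjusted p = 0.00321 on average. Tekt5 stood at 3.18 and 4.19 CPM in telencephalic and 2.70 and 2.03 in hindbrain whole tissue, and 15.05 and 10.2 in telencephalic and 3.96 and 7.93 in hindbrain sorted cells and fell by region in sorted cells (-1.09 ± 0.33, adjusted p = 0.0398) and on average (-0.85 ± 0.25, adjusted p = 0.0312). It had the largest rise on sorting in telencephalic tissue, 3.49-fold (1.802 ± 0.36, adjusted p = 0.0035), and rose in hindbrain tissue as well (1.32 ± 0.35, adjusted p = 0.018). Tekt1 and Tekt2 were lower in hindbrain on average, with -0.38 ± 0.11, adjusted p = 0.031 and -0.51 ± 0.14, adjusted p = 0.0213, and in each of the 4 brains. In whole tissue alone the change of Tekt1 was -0.45 ± 0.16, adjusted p = 0.141, called with the brain as a block (adjusted p = 0.0461). Without 1 library the average stayed called for Tekt4 (adjusted p up to 0.0358), ended for Tekt5 in 4 of 8 refits (without either telencephalic whole library, hindbrain whole replicate 2 or telencephalic sorted replicate 1, up to 0.135), for Tekt2 in 3 (without telencephalic whole replicate 1, hindbrain whole replicate 2 or telencephalic sorted replicate 2, up to 0.131) and for Tekt1 in 6 (all but those without hindbrain whole replicate 1 or hindbrain sorted replicate 2, up to 0.124). The sorted calls by region ended for Tekt4 without either telencephalic sorted library (up to 0.121) and for Tekt5 without either telencephalic whole library, telencephalic sorted replicate 1 or hindbrain sorted replicate 1 (up to 0.320). The hindbrain sorting call of Tekt5 was lost with only the 4 libraries of the comparison (0.0538). The sorting calls of Tekt5 ended without telencephalic whole replicate 1 (0.0638), and without hindbrain whole replicate 2 or hindbrain sorted replicate 2 (up to 0.124).

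Ak7, an adenylate kinase of motile cilia, stood at 152 and 118 CPM in telencephalic and 118 and 101 in hindbrain whole tissue, and 93.0 and 92.7 in telencephalic and 103 and 104 in hindbrain sorted cells and fell on sorting in telencephalic tissue (-0.54 ± 0.13, adjusted p = 0.0126), with -0.082 ± 0.13, adjusted p = 0.698 in hindbrain tissue. That call ended without telencephalic whole replicate 1 or either telencephalic sorted library (adjusted p up to 0.192). Cetn2, a centriole protein, and Tppp3, a tubulin-binding protein, were called in no comparison by edgeR and lay between 47.4 and 66.9 CPM and between 22.4 and 30.9 CPM over the 8 libraries.

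Genes that act before the cilia are built were taken from a list of 20 tested genes for the upstream regulators and centriole amplification, and those called by region were all higher in hindbrain. In whole tissue 1 was called, in sorted cells 4 and on average 6, against 3.34%, 9.06% and 10.6% of all genes called higher, although the list's medians were -0.045, 0.053 and -0.066; with library totals the calls were 2, 5 and 6, again all higher. Gm6320, named Mcidas in RefSeq and a switch for multiciliation, stood at 8.26 and 8.07 CPM in telencephalic and 8.63 and 10.2 in hindbrain whole tissue, and 9.38 and 13.3 in telencephalic and 18.1 and 24.8 in hindbrain sorted cells. It was higher in hindbrain sorted cells (0.93 ± 0.22, adjusted p = 0.0122), without overlap. Ccdc67, named Deup1 and a scaffold of centriole multiplication, stood at 27.2 and 26.8 CPM in telencephalic and 43.5 and 42.2 in hindbrain whole tissue, and 22.6 and 29.6 in telencephalic and 39.5 and 62.7 in hindbrain sorted cells, with 0.97 ± 0.20, adjusted p = 0.00567 in sorted cells and 0.66 ± 0.20, adjusted p = 0.0876 in whole tissue. Stil, needed for new centrioles in dividing cells as well, stood at 12.4 and 13.0 CPM in telencephalic and 18.2 and 18.2 in hindbrain whole tissue, and 10.4 and 12.8 in telencephalic and 27.2 and 29.8 in hindbrain sorted cells and changed by 1.31 ± 0.16, adjusted p = 0.000156 in sorted cells. Without telencephalic sorted replicate 1 the sorted calls of Gm6320 (adjusted p = 0.151) and Ccdc67 (0.0913) were lost, whereas that of Stil stayed in all 8 refits. Plk4, the kinase that starts centriole assembly, was called on average only (0.69 ± 0.20, adjusted p = 0.0284), and that was lost in 5 of 8 refits (without either telencephalic whole library, hindbrain whole replicate 2, telencephalic sorted replicate 1 or hindbrain sorted replicate 2, up to 0.147). Rfx4, an RFX factor, stood at 0.856 and 0.524 CPM in telencephalic and 7.94 and 5.33 in hindbrain whole tissue, and 0.189 and 0.248 in telencephalic and 2.87 and 2.75 in hindbrain sorted cells, with 3.20 ± 0.41, adjusted p = 0.00046 in whole tissue.

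Stil and Plk4 also serve dividing cells, and cell cycle markers moved with region in the same direction. Of 13 such markers 5 were called higher in hindbrain sorted cells and 8 on average, against 9.06% and 10.6% of all genes. In whole tissue no marker was called, and the smallest adjusted p was 0.0620, for Pcna. The summed level of the 13 markers was 286 to 330 CPM in telencephalic and 441 to 446 in hindbrain whole tissue, and 139 to 147 and 205 to 241 in the sorted cells. All 13 were tested and 11 fell on sorting in each region. On sorting the amplification list went the other way in most calls, with 5 higher and 1 lower in telencephalic and 8 higher and 1 lower in hindbrain tissue (0 and 1, and 2 and 1, with library totals). All genes were called 9.88% higher and 12.5% lower in telencephalic, and 10.2% and 11.9% in hindbrain tissue. Gm6320 rose on sorting in hindbrain tissue (1.19 ± 0.22, adjusted p = 0.00245), as did Gm606, named Gmnc (0.60 ± 0.13, adjusted p = 0.00675, or 0.0772 with library totals). The part of dividing cells in these regional changes was not tested.

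**Figure D4:**
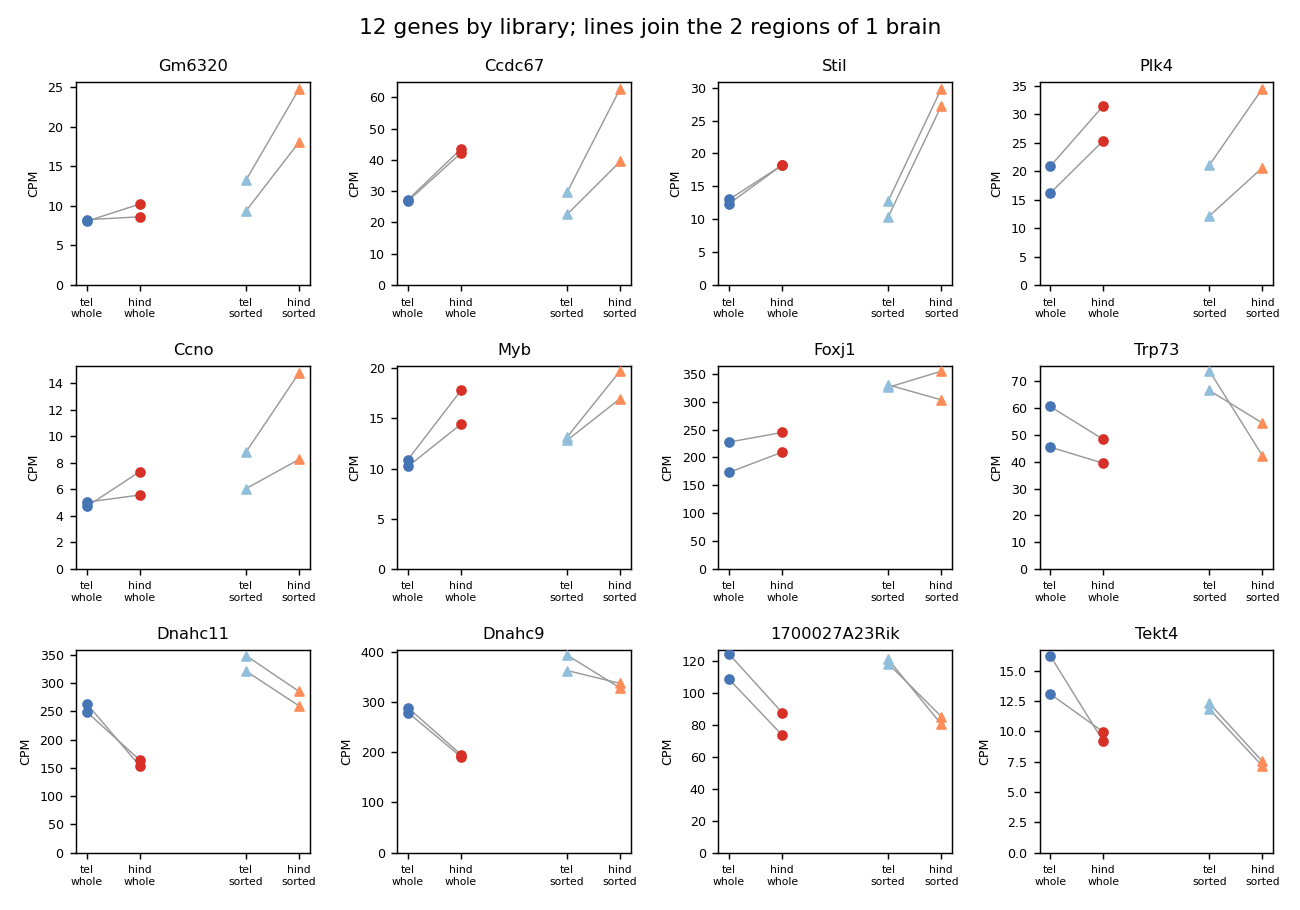
CPM of 12 genes in each library on linear axes from 0, with lines joining the regions of 1 brain; circles are whole tissue, triangles sorted cells. The lines of the top row (amplification genes), of Ccno and of Myb rise from telencephalic to hindbrain, those of Trp73 and of the bottom row fall, and those of Foxj1 do not share a direction.

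The other structural genes of the cilium were taken from 4 lists. Of all genes, 2.45% were called lower in hindbrain in whole tissue, 6.12% in sorted cells and 7.82% on average. On sorting, 9.88% were called higher and 12.5% lower in telencephalic tissue, and 10.2% and 11.9% in hindbrain tissue. In dynein arm assembly and docking, 4 of 20 tested genes were lower in hindbrain in whole tissue, 1 in sorted cells and 4 on average (1, 0 and 2 with library totals, and 1 higher on average). Wdr63, an inner arm component, stood at 135 and 137 CPM in telencephalic and 81.4 and 90.3 in hindbrain whole tissue, and 129.8 and 156 in telencephalic and 101 and 119 in hindbrain sorted cells and changed by -0.67 ± 0.13, adjusted p = 0.00837 in whole tissue and -0.52 ± 0.091, adjusted p = 0.00161 on average. The docking proteins Ccdc114 (-0.48 ± 0.13, adjusted p = 0.0441) and Armc4 (-0.54 ± 0.14, adjusted p = 0.0451) were lower in whole tissue as well. These whole-tissue calls ended without either telencephalic whole library or hindbrain whole replicate 1 for Wdr63 (adjusted p up to 0.0825) and without any of the whole-tissue or telencephalic sorted libraries for Ccdc114 and Armc4 (up to 0.365 and 0.318), whereas the averages of Wdr63 and Ccdc114 stayed called in all 8 refits. With library totals the whole-tissue calls of Ccdc114 (0.128) and Armc4 (0.146) were lost. On sorting, 5 rose and 2 fell in telencephalic and 4 rose and 1 fell in hindbrain tissue (2 and 6, and 4 and 2, with library totals), among them Zmynd10, an assembly factor (0.80 ± 0.13, adjusted p = 0.000929 and 1.04 ± 0.13, adjusted p = 0.000157).

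Among 30 tested partners of the nexin link, the spokes and the central pair, 2 were lower in hindbrain in whole tissue, 2 lower and 1 higher in sorted cells, and 6 lower on average; with library totals the average held 3 higher and 2 lower. Wdr69 (-0.64 ± 0.12, adjusted p = 0.00281), Spef2 (-0.45 ± 0.088, adjusted p = 0.00342) and Ttc18 (-0.43 ± 0.10, adjusted p = 0.00685) had the smallest adjusted p on average, and these calls stayed in all 8 refits without a library; with library totals that of Ttc18 was lost (0.0605). On sorting, 5 rose and 2 fell in telencephalic and 9 rose and 2 fell in hindbrain tissue (2 and 9, and 6 and 4, with library totals). Efhc2, a doublet microtubule protein, rose 3.51-fold (1.81 ± 0.18, adjusted p = 1.76e-05) and 4.19-fold (2.07 ± 0.17, adjusted p = 4.93e-06), and Mns1, found in cilia and flagella, fell in telencephalic sorted cells (-1.06 ± 0.17, adjusted p = 0.000775).

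Genes that motile cilia share with other cilia were covered by the last pair of lists. Of 27 intraflagellar transport genes, which carry cargo along the cilium, 1 was lower in hindbrain in whole tissue, 1 in sorted cells and 3 on average, against 2.45%, 6.12% and 7.82% of all genes, with Ift27 at -0.82 ± 0.18, adjusted p = 0.00758; with library totals the average held 1 higher and 1 lower. Of 26 genes of the BBSome and the transition zone, the gate at the ciliary base, Arl6 was higher (0.42 ± 0.085, adjusted p = 0.00405) and 3 were lower on average, among them Tctn1 (-0.63 ± 0.13, adjusted p = 0.00519) and Tctn2 (-0.38 ± 0.087, adjusted p = 0.00849); with library totals 1 was higher and 1 lower. On average Ift27 and Tctn2 lost their calls when telencephalic whole replicate 1 was left out (adjusted p = 0.0678 and 0.0641), and Tctn2 also with library totals (0.0771). On sorting, 4 transport genes rose in telencephalic and 3 in hindbrain tissue, and of the BBSome and transition zone genes 5 rose and 1 fell, and 3 rose and 1 fell. The shares of all genes were 9.88% higher and 12.5% lower in telencephalic, and 10.2% and 11.9% in hindbrain tissue. With library totals 8 transport genes fell in telencephalic tissue, and 2 rose and 1 fell in hindbrain; of the BBSome and transition zone genes 8 fell, and 1 rose and 3 fell.

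Markers of neurons and of neural progenitors, glia and ependyma, whose ependymal cells also bear motile cilia, were present beside the epithelium. The 11 Cajal-Retzius and neuronal markers summed to 54.7 to 59.9 CPM in telencephalic and 124 to 145 in hindbrain whole tissue, and to 21.95 to 22.8 and 34.7 to 39.1 in sorted cells, where Calb2 had 0 counts. The 12 markers of progenitors, glia and ependyma summed to 773 to 872 and 1050 to 1068 CPM in whole tissue, and to 583 to 613 and 659 to 661 in sorted cells. The single markers did not all follow these sums. Of 8 tested Cajal-Retzius and neuronal markers, 4 were called higher and 0 lower in hindbrain whole tissue, and 2 higher and 2 lower in hindbrain sorted cells, the latter Reln (-1.03 ± 0.31) and Snap25 (-3.32 ± 0.89). Of 11 tested markers of progenitors, glia and ependyma, 4 were higher and 0 lower in whole tissue, and 5 higher and 2 lower in sorted cells, the latter Pax6 (-2.45 ± 0.52) and Sox2 (-0.84 ± 0.23). The shares of all genes called were 3.34% higher and 2.45% lower in whole tissue, and 9.06% and 6.12% in sorted cells. Markers of blood and haematopoietic cells summed to 150 to 227 CPM over the 8 libraries, with 0 counts of Hba-a1 and Hbb-b1 and of Gata1 in at least 1 group. Their part in the regional differences of the cilia genes was not tested.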

How the data were processed

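RNA-seq was deposited for 8 libraries in 4 groups of 2. Per the labels' protocols, RNA from an RNeasy Micro kit went through Ovation V2 (NuGEN) pre-amplification into TruSeq v2 libraries for paired-end reads. No source says that strand was kept, so reads of a gene and of an antisense neighbour cannot be separated. HTSeq, DESeq 1, Bowtie2 2.0.5, TopHat2 2.0.4, CASAVA 1.8.2 and the build mm9 are listed in the submitters' processing notes; annotation, strand setting and the treatment of reads that fit several genes were not given in the sources used here. Each deposited value is a raw count of reads for 1 gene symbol.

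The counts were fitted with edgeR 4.0.16 (R 4.3.3): filterByExpr (minimum count 10, minimum total 15), TMM factors, and a quasi-likelihood model with 4 group means over all 8 libraries. On simulated counts with planted regional changes, only the median fitted changes were checked, and not the rate of false calls. Contrasts gave the change by region in each preparation, their difference and mean, and sorted minus whole in each region. CPM are counts divided by the TMM-scaled library size. Where 1 library is left out, the lone sample of its group is assumed to vary like the other groups. With 2 replicates a group, p-values rest on the spread pooled over groups. Reads carried no molecular identifiers that any source names, so the limit given for 0 counts (3 counts) covers counting error only. Total counts were 8849053 to 31613434 per library, and replicates differed beyond sampling noise (chi-square over its degrees of freedom, 5.16 to 61.1).

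The regions are paired because they come from the same brains. Deviations of same-numbered libraries from their group means correlated at 0.259 in whole tissue and 0.157 in sorted cells. The fit without the brain as a block is the one reported, and the fit with it is given beside a result where it changes a call.

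Alternatives were library totals or relative log expression factors as the scale, no filter, a filter of 1 CPM in 4 libraries, the brain as a block, only the 4 libraries of a comparison, DESeq2 1.42.0, and each library left out. The RFX search with 1 mismatch, the counts by brain and the alternatives for the other ciliary lists were added after seeing the data. Sequences are from RefSeq (GRCm38.p6) and lengths from GENCODE M21; neither is the authors' build, so they were matched by symbol only. The members and lists were chosen with earlier results of these data known. Named with values are the 6 regulators, every member called by region or in the interaction, up to 6 called members per direction by adjusted p in each sorted minus whole comparison, the 6 most abundant members, the members that failed the filter, and up to 3 called genes per other list and comparison; the other members, and Plk4, were named after their values were seen.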

Additional observations from a re-analysis of the deposited data

How the results depend on the processing

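The sign was followed for the called changes of the named cilia genes and, in every comparison, for the changes of the regulators. No called change reversed its sign under any alternative, and the followed values that did were uncalled changes of regulators near 0. Uncalled changes of the other cilia genes were not followed, so reversals among them are not listed. By region, Foxj1 became -0.0041 in whole tissue and -0.00051 on average without telencephalic whole replicate 2, and -0.0079 and -0.11 in sorted cells without telencephalic sorted replicate 2 or hindbrain sorted replicate 2. In sorted cells Rfx2 became -0.015 without hindbrain sorted replicate 2 and Rfx3 0.081 with library totals. In the interaction, Myb became 0.0059 with library totals and 0.045 without hindbrain whole replicate 2, Foxj1 0.0072 without telencephalic whole replicate 2, Rfx2 0.014 without hindbrain whole replicate 2, and Ccno -0.025 and -0.25 without telencephalic sorted replicate 1 or hindbrain sorted replicate 2. On sorting with library totals, Myb became -0.018 in telencephalic and -0.012 in hindbrain tissue and Trp73 -0.068 in hindbrain; Trp73 became -0.0027 and -0.055 there without hindbrain whole replicate 2 or hindbrain sorted replicate 2. Over all leave-outs of 1 library the range of these values was -0.39 to 0.0072 for Foxj1, -0.26 to 0.045 for Myb, -0.29 to 0.014 for Rfx2 and -0.25 to 0.60 for Ccno in the interaction, -0.015 to 0.22 for Rfx2 in sorted cells, -0.00051 to 0.20 for Foxj1 on average and -0.055 to 0.31 for Trp73 on sorting in hindbrain. The number of genes called by region in whole tissue, 5, became 3 with library totals, 8 with the brain as a replicate block and 10 with only the 4 libraries of the comparison, and 1 to 10 without 1 library. In sorted cells, 6 became 2 with only the 4 libraries and 0 to 9 without 1 library, and the median of -0.043 became 0.13 with library totals and -0.17 to 0.035 without 1 library. In the interaction, 0 became 1 with library totals, 2 without a filter, 2 with the block and 2 with DESeq2, and 0 to 1 without 1 library, and its median of 0.14 became -0.045 to 0.26. For the average, 12 became 6 to 14 without 1 library, and its median of -0.11 became 0.025 with library totals and -0.19 to -0.079 without 1 library. On sorting, 13 called in telencephalic tissue became 22 with only its 4 libraries and 6 to 18 without 1 library, and the median became -0.16 with library totals and 0.069 to 0.21 without 1 library; 14 in hindbrain became 9 to 20 without 1 library, and the median 0.084 with library totals and 0.078 to 0.39 without 1 library. Paired by brain, with the replicate block, the other counts were 9 in sorted cells and 16 on average. No paired fit was made for sorting because sorted and whole libraries come from different brains. Library totals moved the share of higher calls among all genes from 57.6% to 70.7% in whole tissue, from 59.7% to 83.5% in sorted cells, from 57.6% to 79.7% on average, and on sorting from 44.1% to 10.5% and from 46.3% to 20.1%. The cause of these shifts was not tested. The SE of the regional change in whole tissue was 0.41 for Dnahc10, 0.38 for Tekt5 and 0.32 for Rsph3b, against 0.11 for the more abundant Dnahc11, and its cause was not tested.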

Other observations

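The replicates of hindbrain sorted cells had the highest chi-square per degree of freedom over all genes, 61.1, against 5.16 to 15.8 in the other groups, while the median replicate SD of the cilia genes on the log2 scale was 0.16 there and 0.16 in telencephalic whole tissue. Several cilia genes of low level, chosen after their values were seen, differed between those replicates: Dnahc10 was at 3.31 and 9.03 CPM, Dnaic1 at 10.2 and 18.46, Ccno at 8.26 and 14.8, and Tekt5 at 3.96 and 7.93. Replicate 2 also held 15 counts of Rsph6a, against 0 or 1 in each of the other libraries. In telencephalic sorted cells Dnahc10 (4.35 and 7.504 CPM) and Dnaic1 (11.0 and 18.8 CPM) were higher in replicate 2 as well.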
